A study of Mus musculus with 16 samples.

Results

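The response of mouse subcutaneous fat to an antibody against PDGF-CC was read as 1 difference shared by 2 diets, in a fit that compared 8 antibody libraries with 8 untreated libraries and held diet as an additive covariate. Of 16091 genes measured, 340 passed the threshold (2.11%). All 340 pointed the same way on the high-fat and on the control diet, which a shared test all but requires. Inguinal white adipose tissue, the fat pad of the groin, was taken from C57BL6/J mice and its poly-A RNA sequenced in 4 groups of 4 libraries: high-fat diet with antibody, high-fat diet untreated, control diet with antibody and control diet untreated. The antibody, AF1447, was injected into the peritoneum of mice 6 weeks old, every 2 days over 2 weeks, with 50 mg/kg per dose and PBS (100 µl) as the carrier. No source used here gives the sex of the mice, the length of the diets, the hour of tissue collection or any control injection of untreated mice. Each library was read on 2 sequencing lanes, and the labels do not tie each library to its own animal, so p-values reflect how far these samples scatter, which may be technical scatter.

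PDGF-CC is a secreted dimer of the platelet-derived growth factor family that is released as a latent protein and becomes active once proteases such as tissue plasminogen activator remove its CUB domains. It binds PDGF receptor alpha, a tyrosine kinase found on the stromal cells of fat from which new adipocytes arise. In fat, PDGF receptor signalling is known to bear on the choice of progenitors between growth, matrix production and adipocyte differentiation. An antibody that holds the ligand acts on protein, so the mRNA of the ligand itself is not a check of the treatment.

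Values are normalized counts, a linear signal per gene whose read depth is unknown, and differences are antibody minus untreated on the log2(value + 1) scale, which understates the change of low genes. Adipoq, the adipocyte hormone adiponectin, lay between 78010 and 97150 normalized counts over the 16 libraries. Muscle transcripts were present in unequal amounts. The mean log2(value + 1) of 16 skeletal muscle genes ran from 3.37 to 8.55 with antibody and from 8.26 to 13.74 untreated on the high-fat diet, and from 10.95 to 12.4 with antibody and from 3.85 to 10.84 untreated on the control diet. Muscle genes thus ran lower with antibody on the high-fat diet and higher with it on the control diet, with 0 of the 16 genes past the threshold. The highest muscle value was that of untreated high-fat replicate 2, and the highest Ucp1 value that of replicate 3 of the untreated control-diet group (44770 normalized counts against 14.8 to 25010 in the others). Without these 2 libraries 415 genes passed, 259 of them among the 340.

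With antibody, 215 genes rose (1.34% of those tested) and 125 fell (0.777%). The median rise was 0.53 and the median fall -0.39 on the log2 scale, so most changes were modest, and 43 genes differed by at least 2-fold, 30 of them upwards and 13 downwards. A gene whose diets point opposite ways can hardly pass a shared test, because the disagreement counts as scatter. The agreement in direction is thus mostly a property of the test and not a result about the diets. The largest coefficients were 2.31 for Alox15, a lipoxygenase with a mean of only 19.7 normalized counts, and -1.77 for Zbtb16. The groups of 4 did not overlap on either diet in 121 of the 340 genes (86 higher, 35 lower), were apart on the high-fat diet alone in 111 and on the control diet alone in 93, and overlapped on both in 15. Over all genes measured, 142 showed such separation on both diets in one direction (0.882%, 95 higher at 0.59% and 47 lower at 0.292%), and 21 in opposite directions (0.131%). Whatever their p, 7777 genes (48.3%) had a higher and 51.7% a lower value with antibody, the background for the counts by direction below. In either direction, 7.23% of all genes were apart on the high-fat diet and 6.48% on the control diet.

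**Figure D1:**
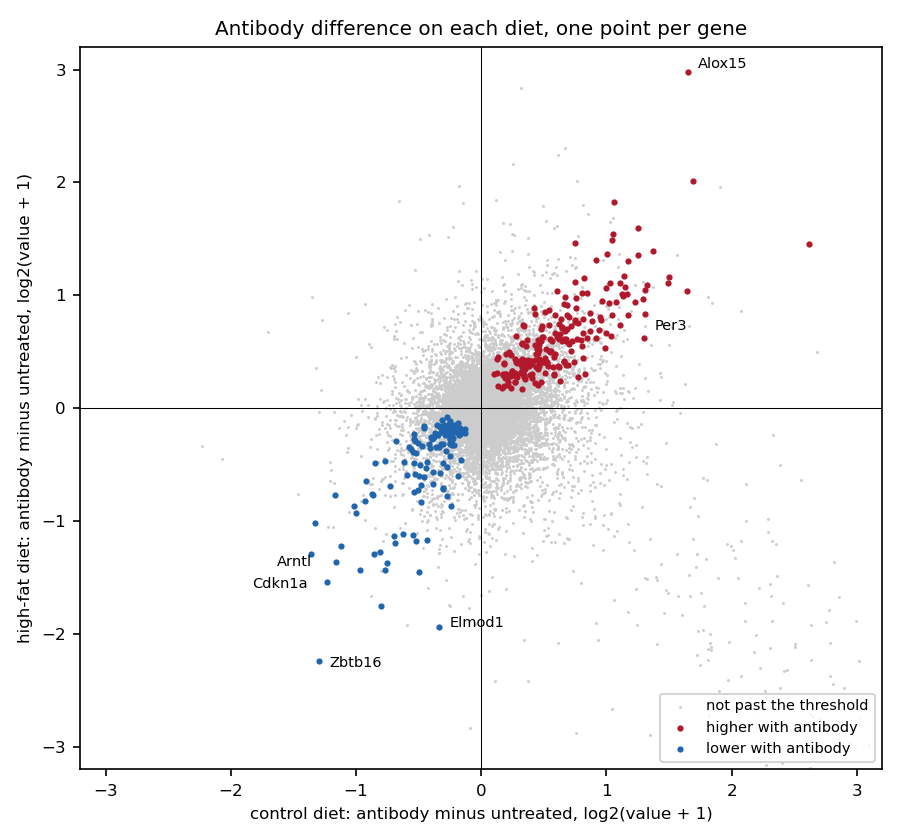
Antibody minus untreated on the log2(value + 1) scale on the high-fat diet (vertical axis) against the control diet (horizontal axis), with 1 point per gene. The 215 genes that rose (red) lie at the upper right and the 125 that fell (blue) at the lower left, while the gene cloud has a tail towards the lower right. Another 82 genes, 0 of them past the threshold, lie outside the axes.

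The 2 genes that fell furthest at appreciable levels were Zbtb16 and Cdkn1a, and in both of them the groups were apart on each diet. Zbtb16 (ENSMUSG00000066687, GRCm38 chr9:48654297-48836222, minus strand) encodes PLZF, a zinc finger transcription factor that glucocorticoids induce in many cells. On the high-fat diet it had 841, 657, 956 and 1117 normalized counts with antibody, against 5103, 6205, 3289 and 2840 untreated. The control diet gave 867, 855, 858 and 1083 with antibody, against 1846, 2382, 3654 and 1563 untreated. The antibody libraries of both diets sat close together, mostly under 1000, and every untreated library lay above all 8 of them. The shared difference was -1.77 ± 0.22 (SE, adjusted p = 0.00157), or -2.24 on the high-fat diet and -1.30 on the control diet, with adjusted p = 0.664 for the difference between the diets (limma). Cdkn1a (ENSMUSG00000023067, GRCm38 chr17:29090976-29100727, plus strand) encodes p21, an inhibitor of cyclin-dependent kinases. It had 512, 322, 717 and 346 normalized counts with antibody and 959, 1238, 1507 and 1658 untreated on the high-fat diet. The control-diet values were 429.7, 344, 368 and 428 with antibody and 1277, 736, 1100 and 688 untreated. No antibody library reached the lowest untreated library of its diet, and the shared difference was -1.39 ± 0.18 (SE, adjusted p = 0.00157). Both calls held with each of the 16 libraries left out in turn, at adjusted p up to 0.0043 and 0.00503.

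Zbtb16 and Cdkn1a belong, with Klf15, to a list of 24 glucocorticoid-responsive genes, of which 3 fell, 1 rose and 20 did not pass. Over all genes 0.777% were called lower and 1.34% higher. This list and those below were chosen with earlier results of these data known, so their counts are a description and show no enrichment. Klf15, a Krüppel-like factor that takes part in adipocyte differentiation (ENSMUSG00000030087, GRCm38 chr6:90462576-90475238, plus strand), had 2313, 1477, 1722 and 1823 normalized counts with antibody and 3231, 2535, 2653 and 2488 untreated on the high-fat diet. With the control diet the values were 1799, 2136, 2685 and 2067 with antibody and 2851, 3151, 3058 and 3336 untreated. The groups did not overlap on either diet, although control-diet antibody replicate 3 came near the untreated range, and the difference was -0.55 ± 0.09 (SE, adjusted p = 0.00632). The glucocorticoid receptor gene Nr3c1 rose by a small margin (0.20 ± 0.04 SE, adjusted p = 0.0333), held in 7 of the 16 leave-one-out fits and 12 of 16 other settings. The call ended with quantile normalization (adjusted p = 0.0504) and without the 2 libraries with the highest muscle and Ucp1 values (0.0531). It also ended with a block for replicate number across the 4 groups (0.0734) or within diet (0.166). The whole list had a median of -0.27 for both diets, -0.55 on the high-fat diet and 0.04 on the control diet, beside -0.006 for all genes. Fkbp5, a classical target of the receptor, differed by -1.23 on the high-fat diet and 0.07 on the control diet (adjusted p = 0.287 for the shared difference, 0.468 for the difference between diets). Tsc22d3, another such target, differed by -0.91 and 0.11 on these diets (adjusted p = 0.420 for the shared difference). Cdkn1a is also 1 of 20 p53 targets, of which 2 fell and 1 rose. The rise was in Phlda3, a p53-induced repressor of AKT (0.86 ± 0.16 SE, adjusted p = 0.0128), and the other fall was slight (Ei24, -0.16 ± 0.04 SE, adjusted p = 0.0442, held in 2 of 16).

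Several genes with narrower spread fell on both diets without overlap. Rbp7, a retinol-binding protein found in endothelium and fat (ENSMUSG00000028996, GRCm38 chr4:149449687-149454978, minus strand), had 973, 681, 966 and 1151 normalized counts with antibody and 2028, 1191, 1942 and 1743 untreated on the high-fat diet. Its control-diet values were 735, 779.7, 620.4 and 645 with antibody and 1225, 1738, 1416 and 1286 untreated. The highest antibody library on the high-fat diet stood just under the lowest untreated one, and the control-diet groups were far apart, with a shared difference of -0.94 ± 0.12 (SE, adjusted p = 0.00164). Banp, a nuclear protein that binds CG-rich promoters (ENSMUSG00000025316, GRCm38 chr8:121949750-122029258, plus strand), had 212, 229, 197 and 218 with antibody and 414, 325, 323 and 290.1 untreated on the high-fat diet. On the control diet Banp had 264, 168, 199 and 218 with antibody and 419.9, 475, 314 and 399.7 untreated. Its groups did not overlap on either diet and it fell by 0.79 ± 0.11 (SE, adjusted p = 0.0025). The same held for Galnt18, an enzyme of protein O-glycosylation (-0.67 ± 0.12 SE, adjusted p = 0.00835), for Osgin2 (-0.59 ± 0.09 SE, adjusted p = 0.00312) and for Ifngr1, the ligand-binding chain of the interferon gamma receptor (-0.54 ± 0.09 SE, adjusted p = 0.0058). Osgin2 differed by the same -0.59 on each diet. These 5 calls held in all 16 leave-one-out fits.

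The other large falls included secreted proteins and channels, and many of them were uneven across libraries on the control diet. Alkal2, a ligand of the receptor tyrosine kinases ALK and LTK, had 59.1, 59.7, 76.2 and 48.8 normalized counts with antibody and 158, 235, 182 and 264 untreated on the high-fat diet, where the groups were well apart. Control-diet libraries had 61.9, 59.6, 91.5 and 70.3 with antibody and 328, 134, 69.7 and 73.2 untreated, where 1 untreated library stood far above the rest and the groups overlapped. Its shared difference was -1.28 ± 0.28 (SE, adjusted p = 0.0284), held in 8 of 16 leave-one-out fits. Cxcl14, a chemokine made by stromal and epithelial cells, fell by 1.10 ± 0.21 (SE, adjusted p = 0.0151), with 392, 543, 794 and 317 in antibody libraries against 1054, 1484, 1490 and 1240 in untreated ones on the high-fat diet. The aggrecan-cleaving protease Adamts4 (-1.20 ± 0.27 SE, adjusted p = 0.0311, held in 7 of 16) and the steroid sulfate transporter Slc10a6 (-1.06 ± 0.24 SE, adjusted p = 0.0335, held in 6 of 16) also separated on the high-fat diet alone, as did the actin-associated Fam107a (-1.08 ± 0.20 SE, adjusted p = 0.0111). The potassium channel gene Kcna5 fell by 0.87 ± 0.14 (SE, adjusted p = 0.00469), as did its neighbour in the same family Kcna1 (-0.98 ± 0.20 SE, adjusted p = 0.0219). Kcna1 had a mean under 100 normalized counts, and its call held in 14 of 16 leave-one-out fits. Alkal2 and Adamts4 each share exon sequence with a gene on the opposite strand, and no source used here says whether reads were counted by strand.

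Bahcc1 had the smallest p of all genes. It encodes a large protein with a BAH domain that binds methylated histone H3 (ENSMUSG00000039741, GRCm38 chr11:120232947-120292296, plus strand). On the high-fat diet it had 2174, 2418, 2357 and 2564 normalized counts with antibody and 1206, 1226, 1062 and 1280 untreated, and on the control diet 2305, 2310, 2353 and 2513 with antibody and 761, 962, 1236 and 1506 untreated. All 8 antibody libraries lay within a narrow band above every untreated library, and the untreated control-diet libraries were the most spread. It rose by 1.06 ± 0.10 (SE, adjusted p = 0.000289), about 2.09-fold, and it was the only gene past the threshold on each diet taken alone in the 4-group fit. The chromatin regulator list, of which it is a member, had 6 of 24 genes higher past the threshold and 0 lower. Its median was 0.18 and 21 genes were higher in all, beside 1.34% called higher, 0.777% called lower and 48.3% higher over all genes. The list was chosen with earlier results of these data known, so these counts are a description and show no enrichment. Besides Bahcc1 the 6 genes included Mecom (0.65, adjusted p = 0.00768), the DNA methyltransferase Dnmt3a (0.29, adjusted p = 0.0262), the SWI/SNF subunit Arid1b (0.29, adjusted p = 0.0351) and the 5-methylcytosine oxidase Tet3 (0.25, adjusted p = 0.0333). The calls of Bahcc1 and Mecom held in all 16 leave-one-out fits, against 11, 6 and 8 fits for Dnmt3a, Arid1b and Tet3.

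Among kinases and GTPases, Tnk2 and Rasl12 rose without overlap on either diet. Tnk2, the non-receptor tyrosine kinase ACK1 (ENSMUSG00000022791, GRCm38 chr16:32643874-32683493, plus strand), had 2095, 2577, 2669 and 1828 normalized counts with antibody and 1495, 1250, 712 and 1045 untreated on the high-fat diet. The control diet gave 2119, 2257, 2363 and 2918 with antibody and 1274, 1033, 1367 and 1158 untreated. Every antibody library exceeded every untreated library of both diets, and the shared difference was 1.03 ± 0.13 (SE, adjusted p = 0.00157). Rasl12, a small GTPase of the Ras family (ENSMUSG00000041696, GRCm38 chr9:65398506-65414853, plus strand), had 3188, 4090, 3755 and 3269 with antibody and 2260, 1401, 859 and 1353 untreated on the high-fat diet. Its control-diet values were 3728, 3131, 2649 and 4410 with antibody and 988, 1235, 1978 and 1745 untreated. Untreated high-fat replicate 1 was the highest of the untreated libraries and still lay under all antibody libraries, with a difference of 1.31 ± 0.18 (SE, adjusted p = 0.0025). Mir22hg, the host transcript of the microRNA miR-22, rose by 0.63 ± 0.08 (SE, adjusted p = 0.00157), Spaca6 by 0.74 ± 0.09 (SE, adjusted p = 0.00157) and Alox12, an arachidonate lipoxygenase, by 1.19 ± 0.17 (SE, adjusted p = 0.00282), each without overlap on either diet. Mir22hg shares exon sequence with Tlcd2 on the same strand, and Alox12 had a mean under 100 normalized counts. These 5 calls held in all 16 leave-one-out fits.

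**Figure D2:**
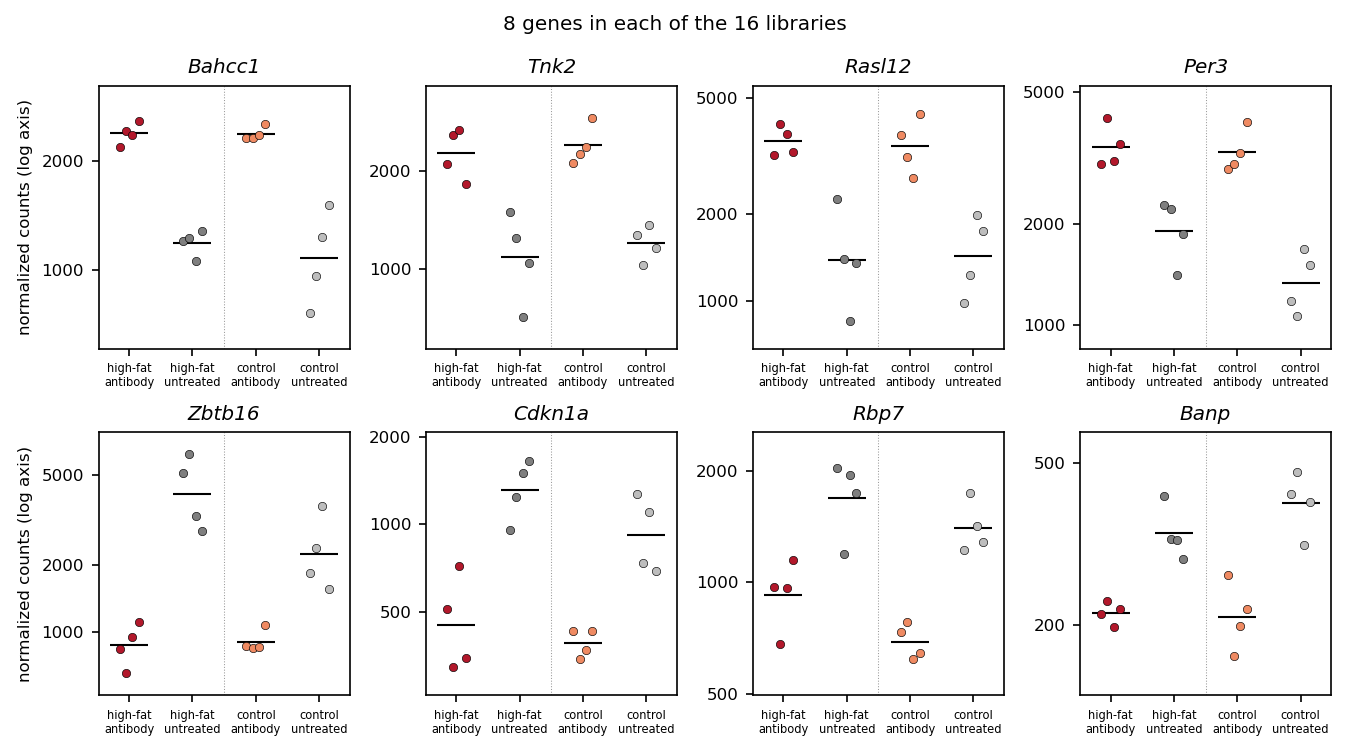
Normalized counts of 8 genes in each of the 16 libraries (points, logarithmic vertical axes) with the geometric mean of each group of 4 (bars). In the upper 4 genes the antibody libraries lie above the untreated libraries of the same diet, and in the lower 4 genes below them.

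Among corepressors that rose, Rcor2, a partner of the histone demethylase LSD1, differed by 1.34 ± 0.28 (SE, adjusted p = 0.0257) and Hr, the hairless corepressor, by 1.18 ± 0.20 (SE, adjusted p = 0.00729). Both were apart on each diet, and the Rcor2 call ended without untreated high-fat replicate 3 (adjusted p = 0.0593), untreated high-fat replicate 4 or control-diet antibody replicate 4 (0.0532 each). The metalloprotease Adamts6 (1.24 ± 0.18 SE, adjusted p = 0.00286) and the leucine zipper protein Lzts1 (1.13 ± 0.16 SE, adjusted p = 0.00286) also separated on both diets. The potassium channel Kcnh2 (1.30 ± 0.27 SE, adjusted p = 0.0234), the muscle M-band protein Myom3 (1.11 ± 0.24 SE, adjusted p = 0.0269) and Pmepa1, a TGF-beta target that limits the same pathway (1.11 ± 0.21 SE, adjusted p = 0.0129), rose with overlap on 1 or both diets. Crtac1 passed with all libraries (1.30 ± 0.31 SE, adjusted p = 0.0426) and in 3 of 16 leave-one-out fits.

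Clock genes moved in both directions. The circadian clock is a transcriptional loop in which CLOCK or NPAS2 pairs with BMAL1 (the product of Arntl) to drive Per, Cry and Nr1d genes and the output factors DBP, TEF and HLF, whose products in turn act on the loop through D-boxes and ROR elements. Of 15 core clock genes 2 rose, 3 fell and 10 did not pass, and of 16 clock output genes 3 rose, 2 fell and 11 did not pass. The shares over all genes were 1.34% called higher and 0.777% called lower. Arntl, Npas2 and Clock, the activators of the loop, fell, and Dbp, Tef and Hlf, which activate through the D-box, rose. Promoters of 2 genes that rose and 2 that fell are shown because, among the clock genes past the threshold, their windows hold a match to 1 kind of these elements within 250 bases before and 50 after the start, as RefSeq gives them on GRCm38.p6, searched on both strands. Capitals mark 2 D-boxes (TTATGTAA) in the window of Per3 (chr4:151044616-151044915, minus strand), 1 E-box (CACGTG) in an upstream window of Tef (chr15:81802423-81802722, plus strand), and the core of a ROR element (TAGGTCA on either strand) in windows of Arntl (chr7:113207261-113207560, plus strand) and Nfil3 (chr13:52980990-52981289, minus strand).
Per3: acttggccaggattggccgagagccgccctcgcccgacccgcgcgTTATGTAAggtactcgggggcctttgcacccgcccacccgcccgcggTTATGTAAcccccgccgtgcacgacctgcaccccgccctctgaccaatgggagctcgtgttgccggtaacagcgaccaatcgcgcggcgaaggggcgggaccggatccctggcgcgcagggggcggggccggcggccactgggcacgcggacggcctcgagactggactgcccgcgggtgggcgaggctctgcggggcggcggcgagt
Tef: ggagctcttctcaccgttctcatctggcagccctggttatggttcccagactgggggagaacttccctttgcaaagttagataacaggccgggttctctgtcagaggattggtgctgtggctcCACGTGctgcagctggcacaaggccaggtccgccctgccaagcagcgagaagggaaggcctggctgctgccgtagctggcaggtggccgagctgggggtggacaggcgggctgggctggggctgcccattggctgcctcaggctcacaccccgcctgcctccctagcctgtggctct
Arntl: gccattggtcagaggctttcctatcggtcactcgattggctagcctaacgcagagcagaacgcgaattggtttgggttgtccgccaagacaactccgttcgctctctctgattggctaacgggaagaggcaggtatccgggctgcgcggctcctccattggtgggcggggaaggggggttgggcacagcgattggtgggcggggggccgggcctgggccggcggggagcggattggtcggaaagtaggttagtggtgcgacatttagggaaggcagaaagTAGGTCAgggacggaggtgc
Nfil3: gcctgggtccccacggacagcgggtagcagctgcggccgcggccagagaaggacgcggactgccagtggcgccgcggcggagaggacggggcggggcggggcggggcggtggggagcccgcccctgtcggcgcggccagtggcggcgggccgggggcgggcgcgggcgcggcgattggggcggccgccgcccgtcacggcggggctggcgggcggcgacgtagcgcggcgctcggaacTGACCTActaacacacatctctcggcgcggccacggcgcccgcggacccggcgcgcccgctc

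Among the repressors of the loop, Per3 (ENSMUSG00000028957, GRCm38 chr4:151003652-151044665, minus strand) had 3027, 4163, 3095 and 3485 normalized counts with antibody and 2280, 2225, 1412 and 1870 untreated on the high-fat diet. On the control diet it had 2939, 3035, 3282 and 4045 with antibody and 1176, 1058, 1689 and 1513 untreated. The groups did not overlap on either diet and it rose by 1.07 ± 0.13 (SE, adjusted p = 0.00157). Nr1d2, which encodes the nuclear receptor REV-ERB beta, rose by 0.33 ± 0.08 (SE, adjusted p = 0.0457), a call that held in 3 of 16 leave-one-out fits. Per1, Per2, Cry1, Cry2 and Nr1d1 did not pass, with shared differences of -0.20, 0.53, 0.34, 0.31 and 0.06 (adjusted p = 0.691, 0.220, 0.180, 0.0593 and 0.914). Per1, which glucocorticoids and other acute signals also induce, had opposite signs on the diets, at -0.62 on the high-fat diet and 0.23 on the control diet (adjusted p = 0.642 for the difference between diets).

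The output factors Dbp, Tef and Hlf, PAR-bZIP transcription factors that bind the D-box, all rose. Hlf (ENSMUSG00000003949, GRCm38 chr11:90336536-90390895, minus strand) had 1330, 1216, 1070 and 1275 normalized counts with antibody and 885, 574, 341 and 512 untreated on the high-fat diet. Its control-diet values were 1376, 1358, 1329 and 1675 with antibody and 271, 293, 924 and 888 untreated. The antibody libraries were close to each other on both diets, while the untreated control-diet libraries split into a low and a high pair, and the shared difference was 1.33 ± 0.25 (SE, adjusted p = 0.0128). Tef (ENSMUSG00000022389, GRCm38 chr15:81802421-81826863, plus strand) had 8091, 9539, 8488 and 8634 with antibody against 6389, 6304, 4498 and 4987 untreated on the high-fat diet, and 8968, 8913, 8361 and 10140 with antibody against 3245, 3538, 6454 and 5733 untreated on the control diet. Tef had no overlap on either diet and rose by 0.83 ± 0.13 (SE, adjusted p = 0.00554). Dbp rose by 1.21 ± 0.23 (SE, adjusted p = 0.0124), with overlap on the high-fat diet, where untreated replicate 1 had 3191 and antibody replicate 3 had 3055 normalized counts. Nfil3, which represses through the same D-box, fell by 0.55 ± 0.13 (SE, adjusted p = 0.0416), held in 5 of 16 leave-one-out fits. Dbp shares exon sequence with Sphk2 and Tef with Gm17597 on the opposite strand.

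The activators of the loop fell. Arntl (ENSMUSG00000055116, GRCm38 chr7:113207465-113314126, plus strand) had 183, 66.5, 142 and 115 normalized counts with antibody and 209, 270.2, 487 and 322 untreated on the high-fat diet. In control-diet fat the values were 184, 129, 104 and 69.4 with antibody and 485, 297, 133 and 228 untreated. The high-fat groups were apart and the control-diet groups overlapped through untreated replicate 3 and antibody replicate 1, for a difference of -1.26 ± 0.28 (SE, adjusted p = 0.0275). Npas2 fell by 1.17 ± 0.25 (SE, adjusted p = 0.0269) at a mean of only 84.7 normalized counts. Their calls held in 11 and 10 of 16 leave-one-out fits, at adjusted p up to 0.0612 and 0.0623. Both ended without high-fat antibody replicate 2, untreated high-fat replicates 3 and 4, control-diet antibody replicate 4 or untreated control-diet replicate 2, and that of Npas2 also without control-diet antibody replicate 3. Clock (ENSMUSG00000029238, GRCm38 chr5:76209868-76304792, minus strand) had 1653, 1347, 1861 and 1405 with antibody against 1964, 1971, 2139 and 2077 untreated on the high-fat diet, and 1544, 1418, 1348 and 1185 with antibody against 1874, 2125, 2237 and 1767 untreated on the control diet. It was apart on both diets, fell by 0.47 ± 0.08 (SE, adjusted p = 0.00561) and kept its call in all 16 fits. The hour of collection, with which clock genes vary, is unknown for every library.

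**Figure D3:**
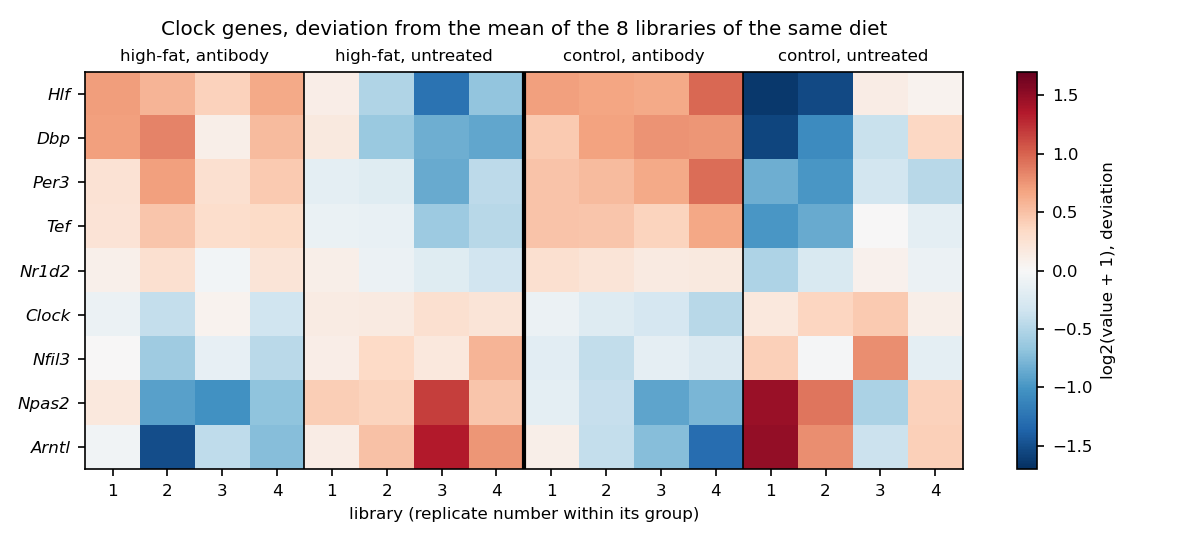
Log2(value + 1) of 9 clock genes past the threshold in each of the 16 libraries, as the deviation from the mean of the 8 libraries of the same diet (red above, blue below). Hlf, Dbp, Per3 and Tef are above their diet's mean in all 8 antibody libraries, while Arntl and Npas2 run the other way in most libraries.

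Shares of promoter windows with a match are given as descriptions, with no test. The D-box was in 0.93% of promoter windows of genes that rose, 0.794% of those that fell and 0.57% of all genes tested, and the E-box in 7.44%, 7.94% and 9.42%. The ROR core was in 2.33%, 1.59% and 1.91%, and the glucocorticoid receptor half-site (AGAACA) in 10.2%, 11.9% and 13%. A GC box (GGGCGG) was in 67.9% and 69.8% of windows of genes that rose and fell, against 58.8% of all. Windows were found for 158 genes that rose, 92 that fell and 11668 of all. The windows of Dbp, Hlf, Npas2, Clock and Nr1d2 and the other window of Arntl held 0 matches to the D-box, the E-box or the ROR core, and the other window of Tef also held 1 E-box. A match within such a window is a description of its letters only. The transcripts of the genes also differed in make-up, with a median GC content of 53.65% in genes that rose, 47.99% in genes that fell and 49.61% in all, and a median length of 4288, 3650 and 3135 bases. With library-wise curves on GC and length removed, a correction chosen after seeing the data, 386 genes passed, 312 of them shared, and the share of rises was 55.7% in place of 63.2%.

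The ligand, its receptors and the activating protease did not pass. Pdgfc had 702, 615, 729 and 546 normalized counts with antibody and 612, 726, 746 and 728 untreated on the high-fat diet, and 491, 582, 651 and 626 with antibody against 909.5, 568, 426 and 504 untreated on the control diet. The groups overlapped on both diets and the difference was -0.05 ± 0.12 (SE, adjusted p = 0.903). Pdgfra was at -0.10 ± 0.11 (SE, adjusted p = 0.74), Pdgfrb at 0.14 ± 0.10 (SE, adjusted p = 0.552) and Plat, tissue plasminogen activator, at -0.11 ± 0.17 (SE, adjusted p = 0.832). Of 11 measured genes of PDGF ligands, receptors and proteases 0 passed, with 5 higher and a median of -0.03, although the median of each diet alone was slightly positive (0.045 on the high-fat and 0.05 on the control diet). In bulk tissue, fewer cells of a type and less RNA per cell cannot be told apart, here and in the results on cell types that follow.

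Of 24 adipogenic transcription factors 3 rose, 1 fell (Klf15, above) and 20 did not pass, beside 1.34% called higher and 0.777% called lower over all genes. Zfp467, a zinc finger cofactor that promotes adipocyte commitment, had 1691, 1581, 1577 and 1453 normalized counts with antibody and 1211, 902, 634 and 757 untreated on the high-fat diet. Control-diet libraries had 1396, 1459, 1573 and 1754 with antibody and 686, 751, 1024 and 1294 untreated. It was apart on both diets and rose by 0.82 ± 0.13 (SE, adjusted p = 0.00561). Ebf3, an early B-cell factor of the group that acts in adipocyte differentiation, rose by 0.64 ± 0.10 (SE, adjusted p = 0.0058), and Srebf1, the regulator of fatty acid and sterol synthesis, by 0.80 ± 0.18 (SE, adjusted p = 0.0303), held in 16 and 9 of 16 leave-one-out fits. The central factors did not pass, with Pparg at 0.24 ± 0.18 (SE, adjusted p = 0.572) and Cebpa at 0.26 ± 0.09 (SE, adjusted p = 0.145). The list had a median of 0.13 and 17 genes higher.

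Mature adipocyte genes as a group stayed near zero. Of 23 measured, Trarg1, which takes part in the traffic of the glucose transporter GLUT4, rose (0.58 ± 0.14 SE, adjusted p = 0.0383, held in 3 of 16), 22 did not pass and the median was 0.001. The difference was 0.01 ± 0.08 (SE, adjusted p = 0.983) for Adipoq and 0.68 ± 0.26 (SE, adjusted p = 0.204) for Lep, which encodes leptin. None of 21 de novo lipogenesis genes passed (median 0.02), although Srebf1 did, and Fasn was at 0.21 ± 0.28 (SE, adjusted p = 0.801). Triglyceride synthesis and lipid droplet genes had 0 of 18 past the threshold, fatty acid oxidation 0 of 20 and oxidative phosphorylation 0 of 27. In the last list 0 of 27 genes had the same sign on the 2 diets, with a median of 0.11 on the high-fat diet and -0.13 on the control diet. By limma 0 genes passed for the interaction of antibody and diet in any list.

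In lists of lipid handling, single genes passed. Fdft1, the squalene synthase of the cholesterol pathway, had 1224, 1470, 1054 and 1324 normalized counts with antibody and 798, 745, 620.0 and 722 untreated on the high-fat diet, and 1998, 2384, 1719 and 1957 with antibody against 871, 1107, 1410 and 1680 untreated on the control diet. The groups were apart on both diets and Fdft1 rose by 0.76 ± 0.12 (SE, adjusted p = 0.00444), the only 1 of 21 cholesterol genes to pass. Adora1, the adenosine receptor that restrains lipolysis, rose by 0.51 ± 0.12 (SE, adjusted p = 0.0426) among 15 lipolysis genes, and Prdm16, the coregulator of beige and brown fat, by 0.68 ± 0.16 (SE, adjusted p = 0.0425) among 18 thermogenic genes. Those calls held in 2 and 3 of 16 leave-one-out fits and in 11 and 10 of 16 other settings. They ended with the muscle list mean as a covariate (adjusted p = 0.0513 each). They also ended with a block for replicate number within diet (0.139 and 0.136) and with no variance trend (0.0599 and 0.059). Ucp1, the uncoupling protein, ranged from 47.9 to 6111 normalized counts with antibody and from 14.8 to 6053 untreated on the high-fat diet, and from 1810 to 25010 with antibody and from 207 to 44770 untreated on the control diet. The groups overlapped widely, with a difference of 1.58 ± 1.38 (SE, adjusted p = 0.652). Of 21 insulin and IGF signalling genes, Pik3ca, a catalytic subunit of PI3-kinase, fell by 0.18 ± 0.04 (SE, adjusted p = 0.0367), held in 7 of 16.

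Genes of WNT, TGF-beta and BMP signalling that passed all rose, 3 of 23. Over all genes 1.34% were called higher and 0.777% lower, so that 63.2% of all calls were rises. Axin2, a feedback inhibitor and common readout of WNT signalling (ENSMUSG00000000142, GRCm38 chr11:108920349-108950783, plus strand), had 653, 622, 920.1 and 492 normalized counts with antibody and 512, 426, 312 and 275 untreated on the high-fat diet. On the control diet it had 770.0, 779, 800.5 and 838 with antibody and 338, 289, 383 and 597 untreated. Only high-fat antibody replicate 4 fell within the untreated range of its diet, and the difference was 0.93 ± 0.16 (SE, adjusted p = 0.0072). Inhbb, the beta-B subunit of activin B, rose by 0.68 ± 0.14 (SE, adjusted p = 0.0201) and Tgfb2, a TGF-beta ligand, by 0.63 ± 0.15 (SE, adjusted p = 0.0396), both apart on each diet and held in 16 and 5 of 16 leave-one-out fits. The list had a median of 0.12 and 17 genes higher. In the mural list, markers of pericytes and vascular smooth muscle, Kcnj8, a channel subunit of pericytes, rose by 0.71 ± 0.12 (SE, adjusted p = 0.00768) and Cspg4, the NG2 proteoglycan, by 0.64 ± 0.12 (SE, adjusted p = 0.0135), each without overlap. The other 10 mural genes did not pass and the list median was 0.05.

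Heat shock and unfolded protein response genes were lower in 19 of 22, with 2 past the threshold, beside 51.7% lower and 0.777% called lower over all genes. This list too was chosen with earlier results known, and its counts are a description. Hsph1, the chaperone HSP110, had 823, 712, 794 and 586 normalized counts with antibody and 1101, 1428, 2110 and 1859 untreated on the high-fat diet. With the control diet the values were 1190, 1062, 1133 and 800.1 with antibody and 956, 1442, 1874 and 2007 untreated. The high-fat groups were apart and the control-diet groups overlapped through untreated replicate 1, for a difference of -0.83 ± 0.17 (SE, adjusted p = 0.0232) that held in 13 of 16 leave-one-out fits. Hspa8, the constitutive HSP70 chaperone and also on the clock output list, fell by 0.53 ± 0.12 (SE, adjusted p = 0.0311), held in 7 of 16. The mean of the list ran from 10.23 to 10.51 with antibody and from 10.52 to 11.17 untreated on the high-fat diet, and from 10.34 to 10.46 with antibody and from 10.46 to 10.73 untreated on the control diet. Its median difference was -0.42 on the high-fat diet and -0.13 on the control diet. Hspd1-ps4, a processed pseudogene of the chaperonin Hspd1, also fell (-0.96 ± 0.18 SE, adjusted p = 0.0128), and its reads may belong in part to the parent gene.

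Lists of other cell types held few or no calls. None passed among 23 adipose progenitor, 27 extracellular matrix, 20 macrophage, 14 inflammatory, 16 interferon response, 10 T cell, 14 endothelial, 10 Schwann cell and nerve, 6 blood, 3 epithelial, 22 proliferation and 20 immediate early genes. The 6 measured B cell genes were all higher, with 0 past the threshold, and had a median of 0.94, the highest of the 33 lists. Their mean ran from 4.12 to 4.53 with antibody and from 2.66 to 3.85 untreated on the high-fat diet, and from 3.81 to 5.04 with antibody and from 3.74 to 3.9 untreated on the control diet. These genes lay between 10.5 and 32.9 normalized counts on average. Cd180, a Toll-like receptor relative of B cells and macrophages (ENSMUSG00000021624, GRCm38 chr13:102693558-102739629, plus strand), had 319, 254, 325 and 225 normalized counts with antibody and 156, 171, 159.7 and 160.0 untreated on the high-fat diet. In control-diet fat the values were 247, 230.1, 266 and 227 with antibody and 186, 107, 129 and 113 untreated. It was apart on both diets and rose by 0.83 ± 0.11 (SE, adjusted p = 0.00164), held in all 16 leave-one-out fits, and it shares exon sequence with Mast4 on the opposite strand. The part of B cell content in this rise was not tested.

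**Figure D4:**
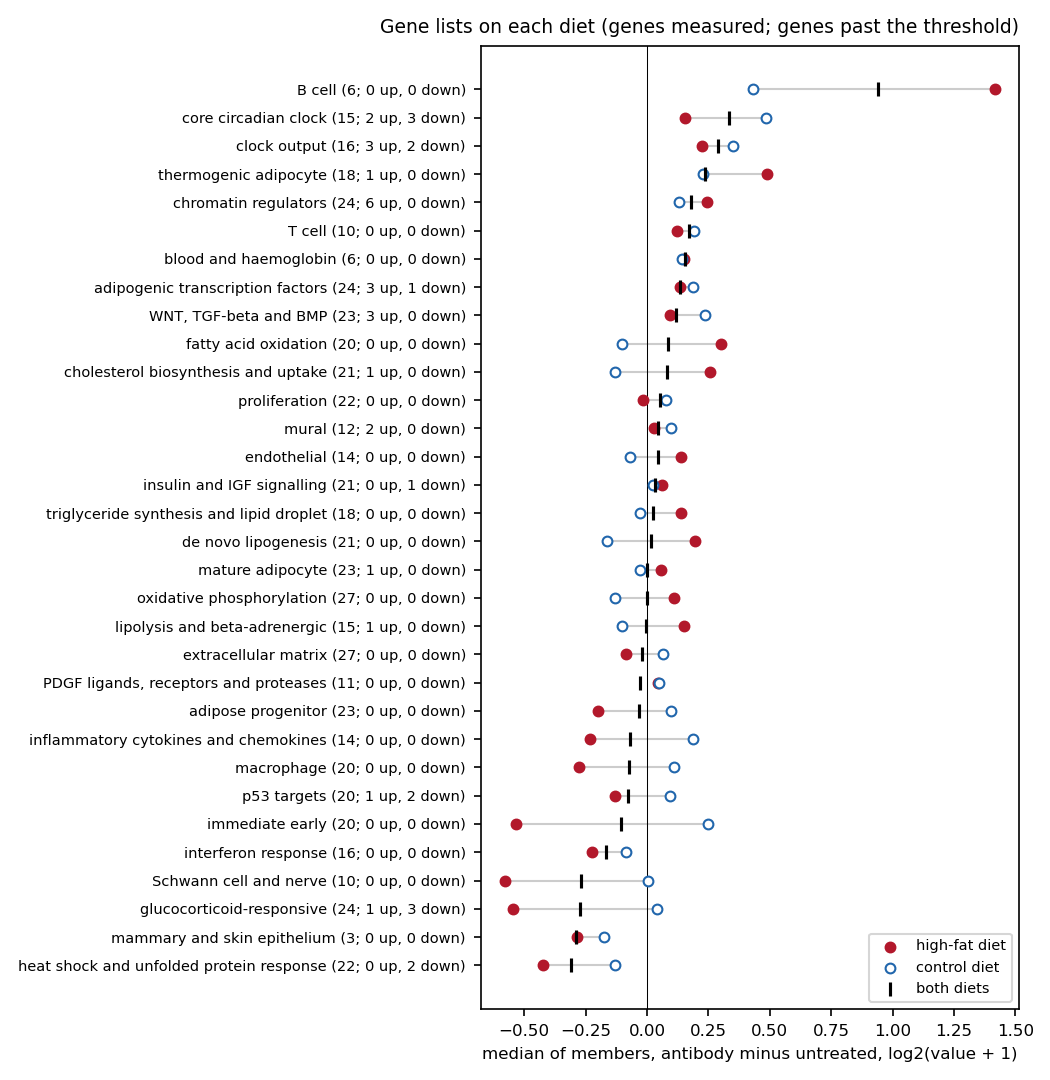
Median antibody minus untreated difference of each gene list on the log2(value + 1) scale, on the high-fat diet (filled), on the control diet (open) and for both diets (bar), with the number of genes measured and the numbers past the threshold. The skeletal muscle list, at -5.20 on the high-fat diet and 3.82 on the control diet, is left out. B cell, clock, thermogenic and chromatin lists lie right of 0 on both diets, as do adipogenic factor, T cell, blood, mural and WNT lists among others. Heat shock, interferon and epithelial lists lie left of 0 on both. The clock lists hold genes that rose and genes that fell.

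Each diet on its own gave few calls, and these pointed the same way on the other diet. In the 4-group fit 11 genes passed on the high-fat diet (0.0684%) and 14 on the control diet (0.087%), with Bahcc1 in both. These counts hung on single libraries: they ran from 1 to 269 on the high-fat diet, the highest without untreated replicate 1 of that diet, and from 0 to 84 on the control diet, the highest without untreated high-fat replicate 2. All 11 had the same sign on the control diet and all 14 on the high-fat diet, while 56.7% of all genes had 1 sign on both diets. Of these, 10 and 13 passed the shared test too. The exceptions were Tppp3, a tubulin-binding protein, at -1.21 on the high-fat diet and -0.16 on the control diet (shared adjusted p = 0.0729), and Xrcc3, a DNA repair protein, at -0.24 and -1.08 (shared adjusted p = 0.0514). Fitted to the 8 libraries of 1 diet alone, 5 genes passed on the high-fat diet (0.0311%): Bahcc1, Zbtb16, Alkal2, Elmod1 and Dixdc1, a WNT pathway protein. On the control diet, whose libraries had no part in that choice, these 5 differed by 1.13, -1.30, -0.80, -0.34 and 0.81, all in the same direction. On the control diet alone limma called 0 genes (0%), with 1584 at an unadjusted p under 0.05.

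The antibody difference was not shown to depend on diet for any gene. By limma 0 genes passed for the interaction (0%), the smallest adjusted p was 0.256, and 1004 genes (6.24%) had an unadjusted p under 0.05, as did 17 of the 340 members (5%). The count at an unadjusted p under 0.05 was 814 to 2120 with 1 library left out, with 2120 without untreated control-diet replicate 1 and 1555 without untreated high-fat replicate 1. Among the 340, the difference was larger on the high-fat diet in 178 and on the control diet in 162. The shared test that chose the 340 counts disagreement between diets as scatter, so these counts of members are no separate check. The smallest interaction p among genes that passed the shared test was that of Elmod1, which had 6.66, 9.79, 10.6 and 11.8 normalized counts with antibody and 43.5, 36.0, 38.2 and 40.3 untreated on the high-fat diet. On the control diet it had 40.2, 23.6, 13.3 and 18.6 with antibody and 23.7, 30.7, 31.4 and 27.7 untreated. The high-fat groups were apart and the control-diet groups overlapped, at a level where the shared difference (-1.14 ± 0.27 SE, adjusted p = 0.0399) held in 4 of 16 leave-one-out fits. Over all genes the 2 within-diet differences, which share no library, correlated at r = -0.424, a description across genes that are not independent. Mylk4, a muscle myosin kinase, was an example, at -6.08 on the high-fat diet and 5.33 on the control diet.

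The size of the gene set depended on single libraries. Leaving out each library in turn gave 154 to 433 genes. All 340 genes kept their sign in every one of these fits, but they were chosen on the same 16 libraries, so this is no separate check. The count moved by more than 1.5 times without high-fat antibody replicate 2 (154 genes), untreated high-fat replicates 3 (168) and 4 (155), control-diet antibody replicates 1 (202), 2 (184) and 4 (160) and untreated control-diet replicate 2 (169). In all, 129 of the 340 genes passed in each of the 16 fits, 95 of them higher and 34 lower, among them Bahcc1, Zbtb16, Cdkn1a, Per3, Tnk2, Rbp7 and Banp. The other 211 lost their call in at least 1 fit. With a block for replicate number, 126 of the 340 passed when the block ran across the 4 groups and 71 when it ran within diet.

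**Figure D5:**
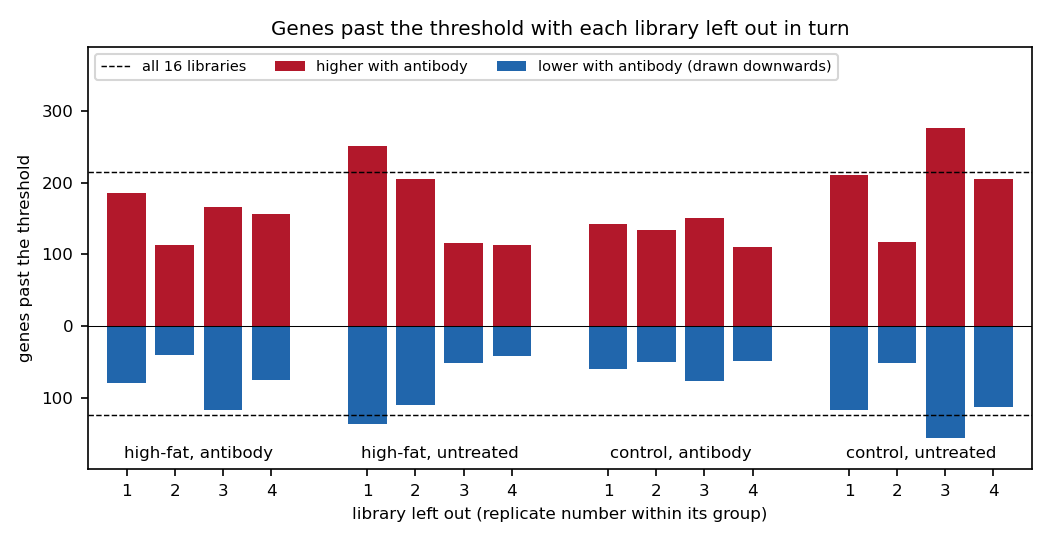
Number of genes past the threshold with each of the 16 libraries left out, those higher with antibody drawn upwards (red) and those lower drawn downwards (blue), with the counts of all libraries (215 and 125) as dashed lines. Rises outnumber falls in all 16 fits.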

How the data were processed

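Poly-A RNA of 16 inguinal fat libraries was sequenced on a stranded kit, per the labels' protocols. The authors deposited 1 table of normalized counts, a linear signal per gene. The submitters' processing notes name limma 3.42.2, Subread 1.6.2 with featureCounts, STAR 2.7.0e and fastp 0.20.1, and the builds mm10 and GRCm38. For the normalization, the filter on low genes and strand use, the sources used here give no details. Values were not whole numbers, so depth is unknown and no count model was run. Column totals were 24.02 to 28.15 in units of 1e6, 255 values were 0, 0 columns were unmapped and 0 pairs identical.

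Log2(value + 1) of all 16091 genes was fitted with limma 3.58.1 in R 4.3.3 (antibody plus diet, variances with a trend on expression, 13 residual and 3.16 prior degrees of freedom). Tests were two-sided with Benjamini and Hochberg adjustment over all genes and a threshold of 0.05. A 4-group fit gave within-diet differences and the interaction. SE and adjusted p values in the text come from these fits. Only the additive fit was tested on simulated data, with noise independent between genes, so variation shared by genes was not covered. Identifiers were matched to GENCODE release 21 of the mouse annotation on GRCm38 (16081 found, 15883 with the same symbol, 7 symbols repeated). Overlap with another gene on the opposite strand was found for 64 of the 340 genes.

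Named were the 12 largest rises and falls with a mean of at least 100 normalized counts, up to 8 each way without overlap on both diets, up to 4 members of each of 33 lists, 10 genes named in every case, genes called on 1 diet, and 5 each way by interaction p. The other genes were chosen after their values were seen. The members and lists were chosen with earlier results of these data known, and lists were not tested as sets. Some genes that the rule named are not reported here. The ROR core was added after seeing the values. Libraries of the same replicate number correlated unevenly (10 of 24 pairs over 0.1, r from -0.63 to 0.61), with r from 0.15 to 0.61 among those of replicate 2. Pairs of different number were not compared, so whether replicate numbers pair libraries was not settled.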

Additional observations from a re-analysis of the deposited data

Results flagged for a closer look

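Of 352 groups of 4 libraries checked for 88 genes, 22 held a library set apart from the other 3 by more than Dixon's 95% limit. Chance flags about 1 in 20 groups. Values are normalized counts.

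With antibody on the high-fat diet, replicate 3 stood high for Ifngr1 (5517, others 4638 to 4726) and low for BC037039 (57.71, others 85.83 to 87.89), and replicate 2 stood high for Gm32389 (136.1, others 109.8 to 112.7) and for the muscle gene Nmrk2 (5.927, others listed at 0).

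Untreated high-fat replicate 3 was set apart for 3 genes. It was low for Fam107a (193.9, others 322.1 to 355.7) and Kcnj8 (196.8, others 299.4 to 313), and high for Npas2 (153.9, others 88.11 to 93.99). Untreated high-fat replicate 1 was low for Pdgfc (612.2, others 726.5 to 746.4).

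With antibody on the control diet, replicate 4 was set apart for 4 genes. It was high for Rcor2 (835.9, others 401.2 to 451), Hlf (1675, others 1329 to 1376) and Zbtb16 (1083, others 854.8 to 867), and low for Xrcc3 (98.28, others 141.8 to 144.1). Replicate 3 was low for Pparg (5278, others 7922 to 8404), Ebf3 (1786, others 2377 to 2466) and Mylk4 (457.2, others 2532 to 3219). Replicate 1 was high for Adamts4 (66, others 49.34 to 51.38).

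Among untreated control-diet libraries, replicate 1 was high for Kcnh2 (172.3, others 85.06 to 93.73), and replicate 3 was high for Crtac1 (468.8, others 129.6 to 152.8) and Fam107a (419.8, others 189.9 to 216.6). Replicate 2 was low for Lep (7059, others 14860 to 16270) and high for Nr4a1 (165.5, others 109.8 to 115) and Nmrk2 (5.629, others 0 to 0.155).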

How the results depend on the processing

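How many genes passed varied over the 32 alternatives. The 340 genes kept the sign of the shared difference in each where they were tested, which their choice on these same libraries favours. A filter on low genes gave 346, a pseudocount of 10 gave 354 and of 0.5 gave 338, quantile normalization 360, median-of-ratios size factors 342, no variance trend 264, robust moderation 340, the average of the within-diet differences 351, the muscle list mean as a covariate 303 and genes with a mean of at least 100 only, chosen after seeing the data, 376. Array weights gave 660, and the thermogenic list mean as a covariate gave 613, of which 612 had 1 direction on both diets. The cause of these moves was not tested. Left-out libraries gave 154 to 433. Whether replicate numbers pair libraries was not settled, and the main fit had no replicate block. With such a block 128 genes passed across the 4 groups and 71 within diet, 126 and 71 of them among the 340. It gave 2 genes for each diet and 1 for the interaction. Without single libraries the interaction had 0 to 1 genes, the control diet 0 to 84 and the high-fat diet 1 to 269. The high-fat count reached 269 without untreated high-fat replicate 1, and the control-diet count 84 without untreated high-fat replicate 2, whose removal changes only the shared spread. Separation on both diets held for 142 genes as deposited and for 136 to 152 with other scalings or the filter. For the 68 named genes past the threshold, 1898 of 2171 values under alternatives stayed past it, 273 did not and 0 changed sign. Among the other named genes 82 values passed under some alternative, and 11 genes changed sign in 49 values. The unknown depth and 4 libraries a group limit the precision.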

Other observations

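Genes of the HoxC cluster on chromosome 15, transcription factors of the body axis whose pattern distinguishes fat depots, were picked out after their values were seen and are not a list. The table holds 6 of them. Of these, Hoxc4 (0.41, adjusted p = 0.0255), Hoxc5 (0.69, adjusted p = 0.00444), Hoxc6 (0.54, adjusted p = 0.0053), Hoxc8 (0.29, adjusted p = 0.0256) and Hoxc9 (0.45, adjusted p = 0.0115) rose with antibody by limma, each with all 4 antibody libraries above all 4 untreated ones on both diets. Over all genes 2.11% passed and 0.882% were apart on both diets in one direction. Hoxc6 had 1265, 1142, 1302 and 1016 normalized counts with antibody and 969, 722, 754 and 694 untreated on the high-fat diet, and 1245, 1256, 1180 and 1331 with antibody against 720.0, 924, 915 and 1078 untreated on the control diet. Hoxc10 was at 0.30 (adjusted p = 0.163) and shares exon sequence with Hoxc5 on the same strand. The Hoxc5, Hoxc6 and Hoxc9 calls held in all 16 leave-one-out fits, against 15 for Hoxc4 and 12 for Hoxc8.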
